A study of Mus musculus with 22 samples.

Results

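The genes for the proteins of the cytosolic ribosome were followed in pancreatic β-cells of fasted and refed mice, with or without ablation of the other islet endocrine cells. A gene counted as a member when its symbol was Rpl or Rps followed by a number and at most one of the letters a or x, or was Rplp0, Rplp1, Rplp2 or Rpsa, which leaves out pseudogene rows ending in -ps and the Rps6k kinases. The table of 52327 gene rows held 76 such symbols. Of these, 75 had at least 10 counts in at least 5 libraries, 45 of the large and 30 of the small subunit, and all 75 were among the 14064 genes tested. Rpl24, a large-subunit protein, missed the minimum, with a median of 3 counts per library and between 0 and 10.

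The cytosolic ribosome reads mRNA on its small subunit and joins amino acids on its large subunit, and each particle holds a single copy of most of its proteins, so cells make them in matched amounts. Their mRNAs typically begin with a C followed by a run of pyrimidines, the terminal oligopyrimidine (TOP) motif. Through it the mTOR kinase complex and the RNA-binding protein LARP1 couple their translation to nutrients and insulin signalling. In β-cells the same ribosomes make proinsulin, whose translation is raised by glucose.

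The 22 mice were males of a mixed background, aged 3 months, whose β-cells had been isolated by FACS, all with the genotype GluDTR+, SstDTR htz, PpyDTR htz, that is, carriers of diphtheria toxin receptor transgenes named for glucagon, somatostatin and pancreatic polypeptide. Mice had received diphtheria toxin (DT) or a control treatment 1 month earlier, and were either fasted for 8 h or fasted for 8 h and refed for 2 h. There were 5 fasted control mice (mice 1 to 5), 6 fasted DT mice (6 to 11), 5 refed control mice (12, 18, 19, 21 and 22) and 6 refed DT mice (13 to 17 and 20), with 1 library per mouse. The tests therefore judge group differences against the spread between mice, shared over the groups. In that spread, differences between animals and between sorting or library preparations cannot be told apart. The design asks how the loss of the neighbouring cells and a meal change β-cell transcripts, alone and together.

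Libraries held between 16584117 and 24988880 gene counts, of which Ins1 and Ins2 took between 40.3% and 69.4%, the highest share in refed DT mouse 13. Sst, the hormone of δ-cells, was the 1 of 3 δ-cell markers called lower in DT mice: fasted control libraries had 31.7 ± 12.3 CPM of Sst (counts scaled to library size; SD, n = 5) and fasted DT libraries 0.828 ± 1.90 (n = 6). Refed control libraries had 52.7 ± 15.4 CPM of Sst (n = 5) and refed DT libraries 0.123 ± 0.192 (n = 6). The other δ-cell markers were not called. Rbp4 was higher on average in DT mice (18.3 and 23.4 CPM fasted, 10.2 and 16.5 CPM refed in control and DT mice), and Hhex was lower when fasted (1.02 and 0.214 CPM) but not when refed (0.512 and 0.593 CPM). Mouse 13 and refed DT mouse 20 also had the highest shares of mitochondrially encoded counts, 1.36% and 1.59%, beside 0.539% to 1.14% in the other libraries. Several results are also given without these mice. In bulk libraries, fewer cells of a type and less RNA per cell cannot be told apart.

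The members together took 0.357% to 0.552% of all counts in a library, with a median of 0.442%. The lowest share was that of mouse 13, where insulin filled most of the library; with Ins1 and Ins2 left out of the total, the same mouse had the highest share, 1.17%, beside 0.715% to 0.983% in the other 21 libraries. The members' median count per library ranged over genes from 17.5 to 4850.5. Large-subunit counts exceeded small-subunit counts 1.61-fold at the median, and this ratio stayed between 1.52 and 1.71 in every library. In control mice it averaged 1.62 ± 0.018 fasted and 1.61 ± 0.067 refed (SD, n = 5 each), and in DT mice 1.64 ± 0.042 fasted and 1.58 ± 0.062 refed (n = 6 each), so the groups overlapped.

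Levels were compared between genes per kilobase of mRNA, as the mean TMM-scaled CPM over the 22 libraries divided by the length of a single transcript per gene. Transcripts with a consensus coding sequence were preferred, then those tagged as the principal isoform, then the shortest. The levels depend on this choice: the transcript used had 437 bases for Rpl41 and 3706 for Rps20. Rpl41, a very short basic peptide of the large subunit, was highest at 395.5 CPM per kb. Rps27, which binds zinc at the surface of the small subunit, followed at 278 CPM per kb, and Rps29, another small-subunit zinc protein, at 245 CPM per kb. At the other end, Rpl23a, a docking site for nascent-chain factors at the exit tunnel, stood at 6.92 CPM per kb. Rpl13a, a protein of the large subunit, stood at 2.81 CPM per kb, Rps10, a small-subunit protein at the mRNA entry side, at 2.10, and Rpl24 at 0.288.

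The 3 lowest genes had a large same-strand overlap with another gene in common, which Rpl23a lacked. In the mouse GENCODE M21 annotation, 71.5% of the exon bases of Rpl24, 59.3% of those of Rpl13a and 91.6% of those of Rps10 lie in exons of another gene on the same strand. No other member was above 10.7%. Of the overlapping genes, Gm28037 (at Rpl24) and Gm45713 (at Rpl13a) had 0 counts in all libraries. Whether the counting assigned reads at such overlaps was not tested.

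**Figure D1:**
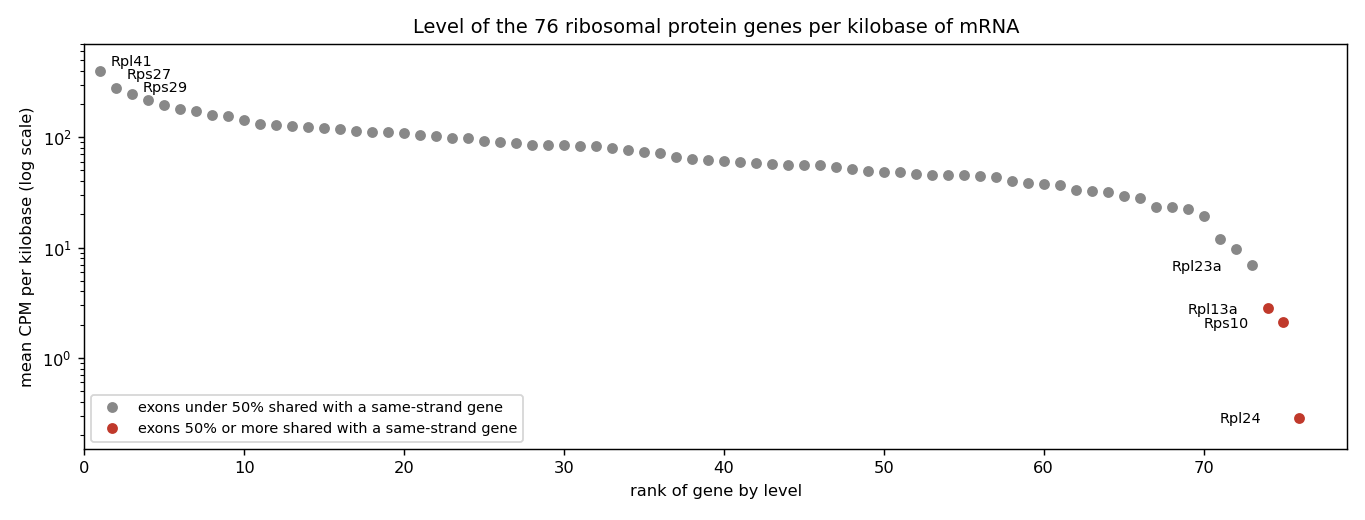
Mean CPM per kilobase of mRNA (log scale) of the 76 genes matching the pattern, over 22 libraries, ordered from the highest. Red points mark the 3 genes with at least 50% of their exon bases in exons of another gene on the same strand (Rpl13a, Rps10 and Rpl24), which are the 3 lowest.

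Copies elsewhere in the genome are a feature of this family. Only 1.6% of the 100-base windows of the Rps27 mRNA occur in no other annotated gene (most are shared with the retrogene Rps27rt), and 8.4% of those of Rpl10, an X-linked protein that joins the large subunit last. Yet Rps27 was among the highest genes, Rps27rt had 21 counts in total, and Rpl10 had 179 CPM per kb. The 9 kept members under 20% had a median of 38.6 CPM per kb and the other 66 had 69.1, and over all 75 members the share of unique windows and the level had a Spearman rho of 0.17, a description with no test. The 320 pseudogene rows of the family, 191 of them with counts, held 1.17% of the counts of members and pseudogenes together. The values of Rps27, Rpl10 and other members with near-identical copies are therefore uncertain to the extent that reads were shared.

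Start-site sequences are shown for the members that later results turn on, because a pyrimidine run at the start is the hallmark of TOP mRNA. RefSeq promoter windows (GRCm38.p6) were matched for 55 of the 75 members, choosing for each gene the start nearest to that of its GENCODE transcript. The starts of both annotations were the same base for 10 members, within 20 bases for 24, and 29 bases apart at the median. Of the genes shown, only Rpl18 had the same start in both. The others differed by 35 (Rps24) to 153 (Rpl12) bases, so their GENCODE starts lie outside the windows. For Rpl27, Rps19 and Rps24, the lack of a run therefore describes the RefSeq start only. Each line gives 30 bases, 15 before and 15 from the RefSeq start on; capitals mark the longest run of at least 5 pyrimidines opening with C. Genes with such a run come first, then 3 without:
Rpl12 (chr2:32961697-32961726, + strand): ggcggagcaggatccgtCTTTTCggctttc
Rpl18 (chr7:45718056-45718085, + strand): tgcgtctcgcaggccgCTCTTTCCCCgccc
Rpl38 (chr11:114668565-114668594, + strand): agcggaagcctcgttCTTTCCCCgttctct
Rplp2 (chr7:141447636-141447665, + strand): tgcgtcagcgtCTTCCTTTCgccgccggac
Rps6 (chr4:86857353-86857382, - strand): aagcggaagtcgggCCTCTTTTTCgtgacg
Rpl27a (chr7:109519180-109519209, + strand): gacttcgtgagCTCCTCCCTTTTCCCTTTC
Rpl27 (chr11:101442230-101442259, + strand): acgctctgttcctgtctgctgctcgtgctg
Rps19 (chr7:24884661-24884690, + strand): ccgcacggtgagtgagggctctgggtcgcg
Rps24 (chr14:24490738-24490767, + strand): tccggcgccgtagccatcatggtgagtctc

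A run of this kind lay in the 30-base window of 33 of the 55 matched members (60.0%) and of 36.4% of all 32851 promoter windows. At 12 members (21.8%), Rpl38, Rplp2 and Rps6 among them, the annotated first base itself was a C followed by at least 4 pyrimidines, beside 2.51% of all windows. Over the whole window, from 250 bases before the start to 50 after it, and on both strands, CCGGAAG, the core recognised by ETS factors such as GABPA, was present at 21 members (38.2%) and 8.86% of all windows. GGGCGG, the Sp1 box, was present at 34 members (61.8%) and 35.7%, and AAGATGGC, the letters that YY1 recognises, at 4 members (7.27%) and 2.75%. TATAAA, the TATA box, was present at 5 members (9.09%) and 13.6%, and CACGTG, the E-box bound by MYC and MAX, at 5 members (9.09%) and 7.15%. Matches of different motifs can share letters at their ends, as CCGGAAG and AAGATGGC do through AAG, and a match describes the letters only.

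Refeeding was compared first in control mice. Here 12 members rose and 1 fell (edgeR quasi-likelihood test, adjusted p under 0.05 over all genes tested), against a background of 10.9% of all genes called higher and 12.3% called lower. The median log2 fold change over the 75 members was 0.16, with 57 above 0, beside -0.04 over all genes tested. The large subunit gave 7 of 45 higher with a median of 0.17, and the small subunit 5 of 30 higher with a median of 0.15.

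Rpl12, a protein of the stalk base where elongation factors dock, had 29.5, 26.8, 23.2, 27.2 and 24.7 CPM in fasted control mice 1 to 5. In refed control mice 12, 18, 19, 21 and 22 it had 36.3, 42.0, 45.7, 35.9 and 44.0 CPM. All refed mice were above all fasted mice, and Rpl12 rose 1.55-fold (log2 fold change 0.63 ± 0.11 SE, edgeR adjusted p = 0.000406). Rpl27, a large-subunit protein, had 31.6, 29.4, 24.0, 26.5 and 23.7 CPM in fasted and 39.4, 45.7, 42.1, 36.7 and 47.0 CPM in refed control mice. Its groups did not overlap either, and it rose by 0.64 ± 0.14 (edgeR adjusted p = 0.00171).

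Rpl38, which supports translation of Hox mRNAs in the embryo, had 35.9, 29.97, 29.9, 29.8 and 24.7 CPM in fasted and 44.2, 50.5, 50.3, 37.3 and 55.4 CPM in refed control mice. It had the highest log2 fold change of the members, 0.66 ± 0.21, but its call was less firm (edgeR adjusted p = 0.0262), and it lost the call without any of mice 3, 5, 18, 19 or 22. Rpl18, a large-subunit protein, went from 57.2 ± 6.7 to 75.9 ± 3.6 CPM (SD, n = 5 each) and rose by 0.41 ± 0.11 (edgeR adjusted p = 0.0101). Rpl12, Rpl18 and Rpl27 were among the 4 members that kept their calls in all 22 fits that left out 1 library, and the other 9 calls did not.

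The acidic stalk recruits and activates elongation factors and is built on Rplp0, to which dimers of Rplp1 and Rplp2 attach. Rplp2 rose from 24.0 ± 3.2 to 33.2 ± 3.1 CPM (log2 fold change 0.47 ± 0.15, edgeR adjusted p = 0.0246) and Rplp0 from 146.9 ± 12.9 to 187.5 ± 12.8 CPM (0.35 ± 0.13, edgeR adjusted p = 0.0487). Rplp1 had 55.6 ± 7.4 and 62.7 ± 5.2 CPM and was not called (0.17 ± 0.14, edgeR adjusted p = 0.422). The call of Rplp2 was lost without mouse 3 or mouse 22, and that of Rplp0 held in only 5 of the 22 fits with 1 library left out.

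Rpl5 and Rpl11 carry the small 5S RNA into the large subunit and, when free, bind MDM2 and stabilise p53. Rpl5 had 22.7, 24.8, 17.3, 19.3 and 19.4 CPM in fasted and 27.7, 25.8, 30.4, 26.8 and 28.6 CPM in refed control mice. It rose by 0.43 ± 0.15 (edgeR adjusted p = 0.0377), its groups did not overlap, and the call held in 15 of the 22 fits. Rpl11, its partner, had 43.1 ± 2.5 and 43.0 ± 3.8 CPM and a log2 fold change of -0.01 ± 0.09 (edgeR adjusted p = 0.973). Rps6, the substrate of S6 kinase, rose from 65.2 ± 3.9 to 78.9 ± 4.4 CPM (0.27 ± 0.09, edgeR adjusted p = 0.0373), a call that held in 13 of the 22. Rps13, of the small subunit (0.45), and Rps27a, a ubiquitin fusion (0.34), were called higher too.

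Rps19, a small-subunit protein whose loss causes Diamond-Blackfan anaemia in humans, was the member that fell. It had 58.4, 52.8, 52.1, 55.1 and 59.0 CPM in fasted and 46.8, 40.1, 40.3, 38.8 and 48.2 CPM in refed control mice, and the groups did not overlap. It dropped by 0.37 on the log2 scale (SE 0.11, edgeR adjusted p = 0.0137), and the call was lost without mouse 4 and when the filter on low counts was left out. Rpl9, at -0.24, was not called (edgeR adjusted p = 0.0645).

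In total, refed and fasted control mice did not overlap for 12 of the 75 members, higher after the meal, beside 10.4% of all genes. Rps19 alone had all its refed values below the fasted ones. The number called moved with single libraries: it was 5 without refed control mouse 22, 6 without fasted control mouse 3, 8 without fasted control mouse 4 or 5, and 20 without refed DT mouse 13, which enters this comparison only through the shared spread and scaling.

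In DT mice, 34 members rose on refeeding and none fell, against a background of 10.8% of all genes called higher and 13.5% called lower, and the calls comprised 18 of the large and 16 of the small subunit. All 75 log2 fold changes were above 0, from 0.002 for Rpl22 to 0.78 for Rpl27, with a median of 0.33 (0.28 large, 0.35 small), beside -0.06 over all genes tested. Fasted and refed DT mice did not overlap for 11 of the 75 members, all higher after the meal, beside 563 of the 14064 genes tested that were higher without overlap. Both comparisons of refeeding use different mice.

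Rpl27 had 23.3 to 37.0 CPM in fasted DT mice (median 29.9) and 42.8 to 66.6 in refed DT mice (median 50.9), so the groups did not overlap. It rose 1.72-fold (log2 fold change 0.78 ± 0.13, edgeR adjusted p = 0.000117). Rpl12 had 25.6 to 37.5 CPM (median 28.4) and 41.0 to 50.7 CPM (median 48.5), again without overlap, and rose by 0.64 ± 0.10 (edgeR adjusted p = 0.000147). These were the members with the smallest p-values.

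Rpl38 had 26.3 to 46.9 CPM in fasted DT mice (median 33.6) and 44.3 to 105.2 CPM in refed DT mice (median 49.7), the highest of them in mouse 13. Its log2 fold change was 0.71 ± 0.19 (edgeR adjusted p = 0.0101), and 0.57 ± 0.16 without mice 13 and 20 (edgeR adjusted p = 0.0111). Rplp2 had 22.7 to 29.0 CPM (median 24.4) and 30.6 to 58.2 CPM (median 33.9), with no overlap. It rose by 0.57 ± 0.14 (edgeR adjusted p = 0.00377). Rps29 rested on mouse 13: fasted DT mice had 71.0 to 94.2 CPM (median 76.8), 5 refed DT mice 85.6 to 106.9 CPM and mouse 13 290.8 CPM. Its log2 fold change of 0.67 ± 0.24 (edgeR adjusted p = 0.0457) was 0.31 without mouse 13, with the call lost.

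**Figure D2:**
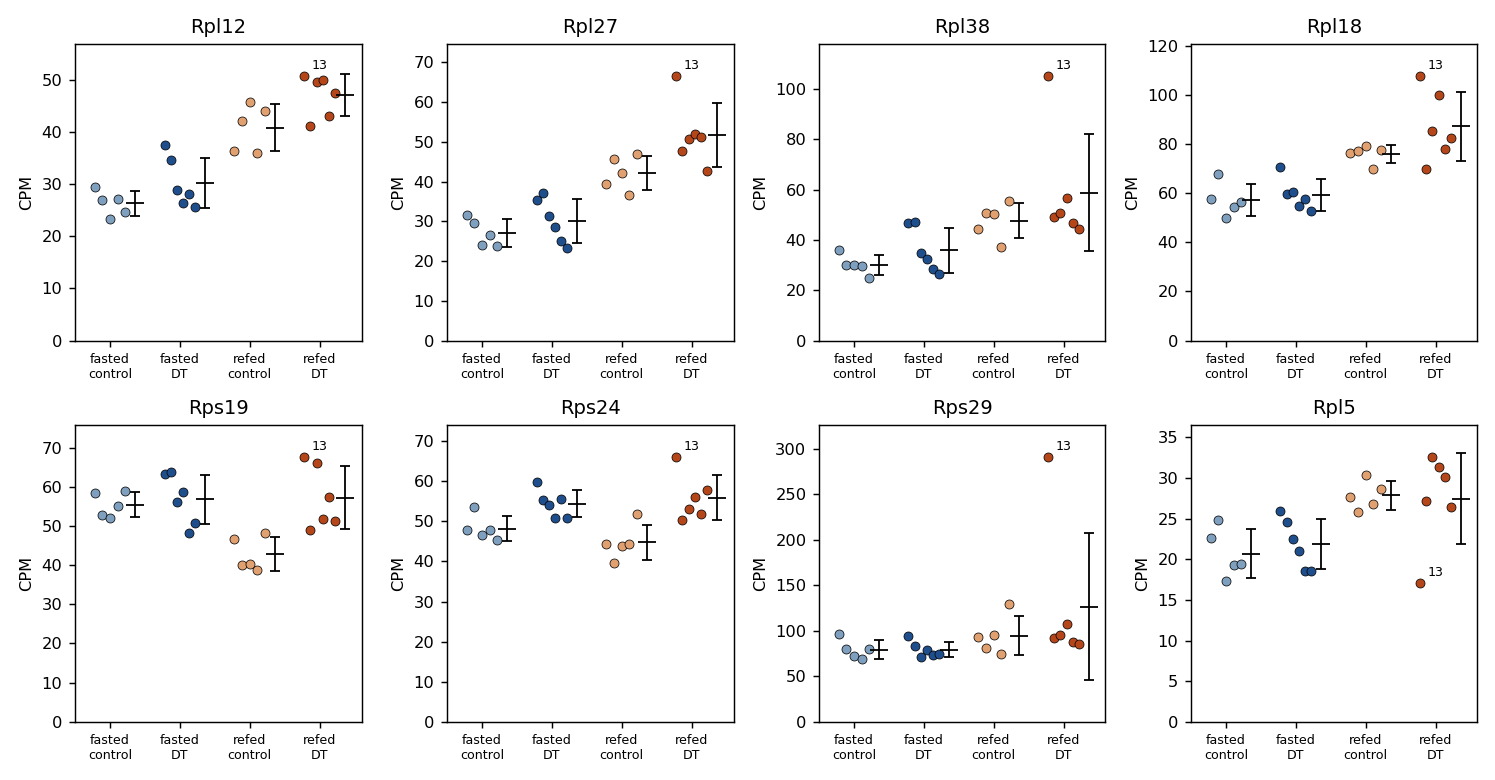
CPM of 8 members in each of the 22 mice, by group, with points for mice in order of their number, and mean and SD of each group beside them in black. Rpl12, Rpl27, Rpl38 and Rpl18 are higher on average in both refed groups, Rps19 is lower in refed than in fasted control mice, and refed DT mouse 13 (numbered) stands far above its group for Rps29 and Rpl38 and below it for Rpl5.

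Rps6 rose in DT mice as well (0.26 ± 0.08, edgeR adjusted p = 0.0294). Rpl5 was not called with all mice (0.33 ± 0.13, edgeR adjusted p = 0.077), where mouse 13 had 17.1 CPM and the other refed DT mice 26.4 to 32.6. Without mice 13 and 20 it was called (0.54 ± 0.12, edgeR adjusted p = 0.00168). Rplp0 (0.29 ± 0.12, edgeR adjusted p = 0.0784), Rplp1 (0.35 ± 0.13, edgeR adjusted p = 0.0522) and Rpl11 (0.11 ± 0.08, edgeR adjusted p = 0.36) were not called. Without mice 13 and 20, Rplp0 (0.40 ± 0.13, edgeR adjusted p = 0.0288) and Rplp1 (0.31 ± 0.11, edgeR adjusted p = 0.0361) were. Rps19 had 48.3 to 63.7 CPM in fasted (median 57.3) and 48.9 to 67.6 CPM in refed DT mice (median 54.5), a log2 fold change of 0.01 ± 0.10 (edgeR adjusted p = 0.954).

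Of the 12 members called higher in control mice, 10 were also called in DT mice (83.3% of the control calls and 29.4% of the DT calls), with Rpl12, Rpl18, Rpl27, Rpl38, Rplp2, Rps6, Rps13 and Rps27a among them. Rpl5 and Rplp0 were called in control mice alone. Among the 24 called in DT mice alone were Rpl35 (0.53), Rpl34 (0.50) and Rps25 (0.51). Over the 75 members the 2 sets of log2 fold changes had a Pearson r of 0.73 and a Spearman rho of 0.70, a description over genes that share libraries. Of the 34 calls, 16 held in all 22 fits that left out 1 library, and the number called fell to 17 without fasted DT mouse 10 and to 20 without mouse 9, 11 or 16. Without mice 13 and 20 it was 43, 31 of the 34 among them. More of all genes passed in that fit too. At an unadjusted p under 0.05, 58 members were higher, beside 2977 of 14295 genes. With all mice, 52 members and 2225 of 14064 genes were.

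**Figure D3:**
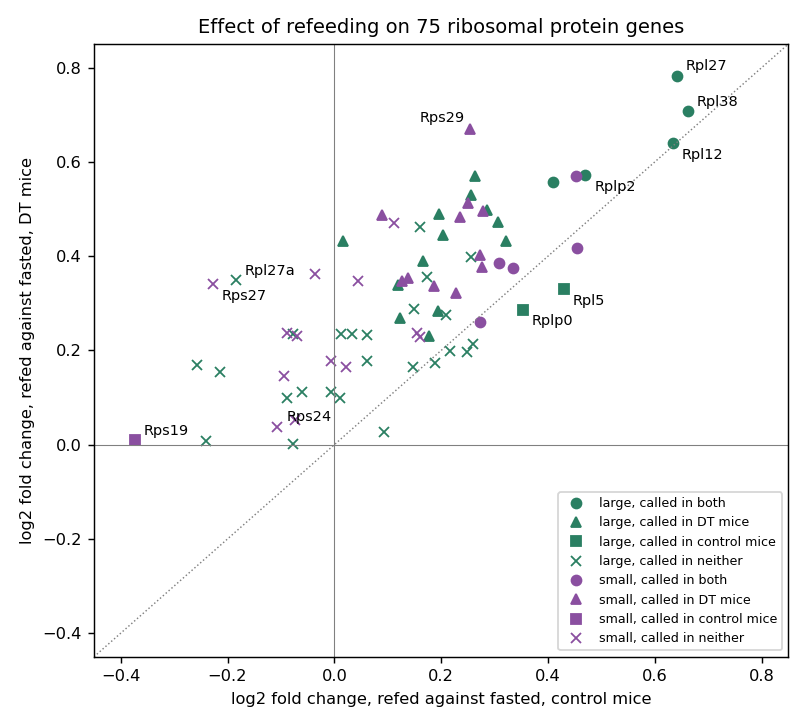
Log2 fold change of each of the 75 members on refeeding, in control mice (x axis) and in DT mice (y axis), coloured by subunit, with the symbol showing where it was called; the dotted line marks equal changes. All points lie above 0 on the y axis, Rpl27, Rpl38 and Rpl12 are highest on the x axis, and Rps19 is the one member called lower, in control mice.

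Averaged over DT and control mice, 39 members rose on refeeding and none fell (23 of 45 large, 16 of 30 small), against a background of 17.2% of all genes called higher and 21.7% called lower. The median was 0.24, with 68 of 75 above 0. Rpl12 rose by 0.64 ± 0.08, Rpl27 by 0.71 ± 0.09 and Rpl18 by 0.48 ± 0.08. Of the 39, 29 held in all 22 fits with 1 library left out, and 49 members were called without mice 13 and 20. At an unadjusted p under 0.05, 52 members were higher without these mice, beside 3535 of 14295 genes. With all mice, 45 members and 2903 of 14064 genes were. Among the matched members, a pyrimidine run lay near the start of 18 of 27 called on average and of 15 of 28 not called, and CCGGAAG was in the windows of 12 and of 9.

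Loss of the other endocrine cells was compared in fasted mice and in refed mice. In fasted mice no member was called between DT and control (edgeR; background 0.0284% of all genes), nor by DESeq2 or limma voom, and 1 member had an unadjusted p under 0.05 with the higher value in DT mice (background 5.13% of all genes). The median log2 fold change was 0.04, with 53 of 75 above 0. The member with the smallest p was Rpl29, a large-subunit heparin-binding protein, at 10.9, 15.95, 13.5, 9.99 and 10.6 CPM in control and 10.9 to 18.04 CPM (median 16.4) in DT mice. Its log2 fold change was 0.35 ± 0.17 (edgeR adjusted p = 0.597). Rps24 (0.18 ± 0.09, edgeR adjusted p = 0.6) and Rpl3, which helps form the catalytic centre (0.15 ± 0.08, edgeR adjusted p = 0.665), followed.

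In refed mice no member passed the edgeR test either (background 0.0356%). At an unadjusted p under 0.05, 21 members were higher in DT mice and none lower, beside 5.63% of all genes higher at that level. DESeq2 called 1 member, Rps19, and limma voom none. The background shares are those of edgeR, and the share of all genes that DESeq2 called is not given here. Of the 75 log2 fold changes, 72 were above 0, with a median of 0.21 (0.20 large, 0.25 small), beside -0.004 over all genes tested. Without mice 13 and 20 the median was 0.15, and 18 members were higher at an unadjusted p under 0.05, beside 7.44% of all genes.

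Rps19 had the smallest p. Its refed control values, 46.8, 40.1, 40.3, 38.8 and 48.2 CPM, all lay below the 48.9 to 67.6 CPM of refed DT mice (median 54.5). The log2 fold change was 0.42 ± 0.10 (edgeR adjusted p = 0.168) with all mice and 0.40 ± 0.11 (edgeR adjusted p = 0.076) without mice 13 and 20. Rps24, whose mutations also cause Diamond-Blackfan anaemia, had 44.3, 39.7, 43.8, 44.4 and 51.7 CPM in refed control and 50.4 to 66.1 CPM (median 54.6) in refed DT mice, with an overlap by control mouse 22. Its log2 fold change was 0.32 ± 0.08 (edgeR adjusted p = 0.198). Rpl13, a large-subunit protein (0.28 ± 0.08, edgeR adjusted p = 0.247), and Rpl27a, also of the large subunit (0.44 ± 0.14, edgeR adjusted p = 0.255), came next. Mouse 13 had the highest Rpl27a value, 44.9 CPM beside 24.6 to 33.3 CPM in the other refed DT mice, and without mice 13 and 20 the log2 fold change was 0.36 ± 0.12 (edgeR adjusted p = 0.148). Rps19 and Rpl41 were the 2 members whose groups did not overlap (2.67%, beside 0.427% of all genes higher without overlap). Rpl41 had 150.3 to 168.7 CPM in refed control and 169.9 to 213.7 CPM in refed DT mice.

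Averaged over feeding states, no member was called by edgeR (background 0.206%). At an unadjusted p under 0.05, 15 were higher in DT mice and none lower (background 6.87% higher), with a median of 0.12 and 73 of 75 above 0. Without mice 13 and 20 the median was 0.09 and 14 were higher at that level. Rps24 was closest, at 48.2 ± 3.2 CPM in control and 54.4 ± 3.4 in DT mice when fasted, and 44.8 ± 4.4 and 55.9 ± 5.7 when refed (average log2 fold change 0.25 ± 0.06, edgeR adjusted p = 0.0963). DESeq2 called Rps24 and Rpl29, and limma voom called none, again without the DESeq2 share over all genes beside it.

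The interaction, that is the difference between the refeeding responses of DT and control mice, was not called for any member by edgeR, DESeq2 or limma voom (background 0.00711%). It was above 0 for 66 of the 75 members, with a median of 0.15, beside -0.02 over all genes tested. At an unadjusted p under 0.05 there were 4 members, all with the larger response in DT mice (background 3.29%). These were Rps27 (0.57 ± 0.21, edgeR adjusted p = 0.59), Rpl27a (0.53 ± 0.19, edgeR adjusted p = 0.59), Rps19 (0.38 ± 0.14, edgeR adjusted p = 0.59) and Rpl37a (0.37 ± 0.16, edgeR adjusted p = 0.666). Rpl27a went from 25.8 ± 1.6 CPM fasted to 22.7 ± 3.5 refed in control mice, and from 24.2 ± 2.4 to 30.8 ± 7.5 in DT mice. Without mice 13 and 20 the median interaction was 0.14, that of Rpl27a was 0.48 ± 0.16 (edgeR adjusted p = 0.206), and 8 members had an unadjusted p under 0.05, beside 7.03% of all genes. The larger number of calls in DT than in control mice is thus not shown to be a difference between them for any single gene.

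**Figure D4:**
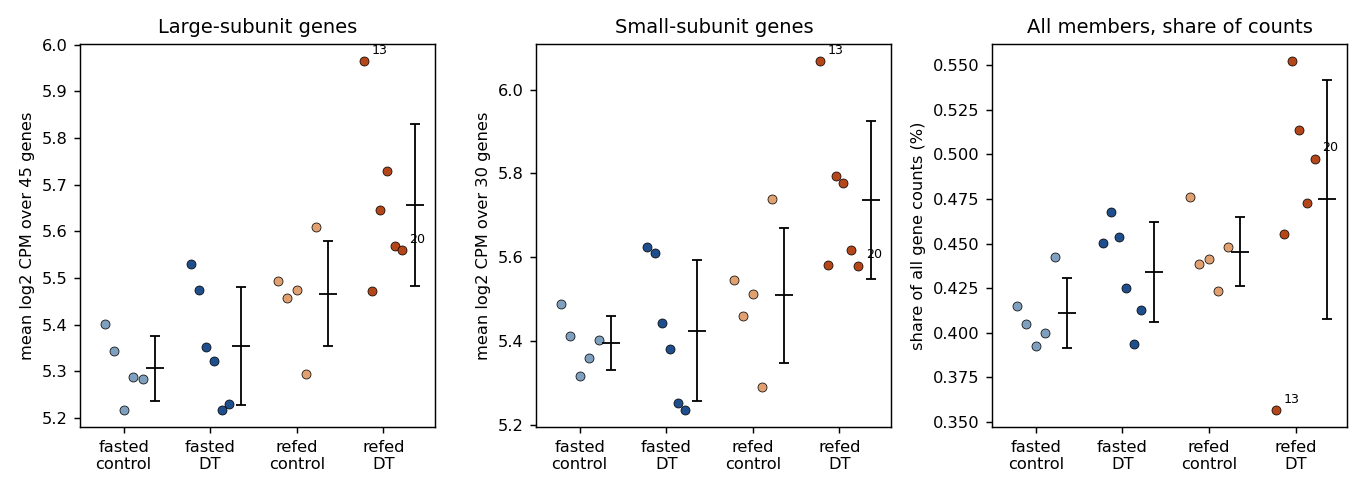
Mean log2 CPM over the 45 large-subunit genes (left) and the 30 small-subunit genes (middle), and the members' share of all counts (right), for each mouse by group, with the mean and SD of each group in black. Refed DT mice are highest on average in all 3 panels, and mouse 13 is at the top of the first 2 panels and at the bottom of the third.

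The members moved together between mice. The mean log2 CPM over the 75 members was 5.34 ± 0.07 fasted and 5.48 ± 0.13 refed in control mice (SD, n = 5 each), and 5.38 ± 0.14 fasted and 5.69 ± 0.18 refed in DT mice (n = 6 each). The lowest refed DT value, 5.51 in mouse 14, lay below the highest fasted DT value, 5.57, so the groups overlapped. The large- and small-subunit means had a Pearson r of 0.98 and a Spearman rho of 0.96 over the 22 libraries. Each member's log2 CPM was set against the mean of the others over the 22 libraries: the median r was 0.81, and 41 of 75 had an r above 0.8. These correlations are descriptions over libraries that share depth and scaling. The members' biological coefficient of variation had a median of 0.163, beside 0.267 over all genes tested. This comparison was not matched for expression level, and Rps10, with a median of 17.5 counts, had 0.346.

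The members least like the rest were Rpl13a (r = -0.08), Rps3 (0.10), Rpl9 (0.10), Rps14 (0.23) and Rpl22 (0.32). Rps3, which guards the mRNA entry and also acts in DNA repair, had 117.8 ± 20.4 CPM in refed DT mice with mouse 13 at 77.4 CPM, and its r was 0.83 without mice 13 and 20. Rpl13a (0.18), Rpl9 (0.37) and Rpl22 (-0.03) stayed low without those mice, and Rps14 reached 0.64. Rpl22 binds small structured RNAs and is dispensable for general translation, and Rpl13a has the overlapping annotation described above.

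Mouse 13 differed from its group in the pattern as well as in the level. Each library's members were compared with the mean of the other mice of the group: in mouse 13 the deviations had a median of 0.34 and an SD of 0.49 log2 units over the 75 members, beside SDs of 0.11 to 0.21 in the other 21 libraries. They ran from 1.64 for Rps29, 1.29 for Rpl28 and 1.23 for Rps28 down to -0.70 for Rps3 and -0.78 for Rpl5.

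Genes outside the pattern that belong to the same machinery were counted next. Of 10 tested ribosomal proteins and close relatives with other symbols, 5 rose and 1 fell on refeeding in control mice, and 6 rose and none fell in DT mice. In control mice these are 50% higher and 10% lower, beside 10.9% and 12.3% of all genes. In DT mice they are 60% higher, beside 10.8% of all genes. Rpl22l1, the paralogue of Rpl22, rose by 0.69 ± 0.14 and 0.50 ± 0.12, and Rpl36al, an autosomal copy of Rpl36a, by 1.08 ± 0.20 and 0.82 ± 0.18. Rpl36al too shares 63.1% of its exon bases with another gene on the strand. Rps3a1, a small-subunit protein, was the gene that fell in control mice (-0.27 ± 0.09, edgeR adjusted p = 0.0292).

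Chaperones, importers and assembly factors accompany new ribosomal proteins to the nucleus and into the particle. Of 13 tested, 8 rose in control and 4 in DT mice, and none fell. These are 61.5% and 30.8% of the list, beside 10.9% and 10.8% of all genes called higher. Without mice 13 and 20, the list had 9 genes called higher in control and 8 in DT mice, and none lower. Ltv1, an assembly factor of the small subunit, rose from 17.1 ± 4.7 to 36.7 ± 6.0 CPM in control mice (1.11 ± 0.18, edgeR adjusted p = 0.000179) and from 23.4 ± 4.8 to 34.6 ± 4.9 CPM in DT mice (0.56 ± 0.17, edgeR adjusted p = 0.016). Grwd1, the escort of Rpl3, rose by 1.06 ± 0.18 and 1.26 ± 0.17. Tsr2, the escort of Rps26, rose in control mice by 0.49 ± 0.14.

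Other genes with TOP mRNA moved both ways. Of 20 tested, 5 rose and 4 fell in control mice, and 5 rose and 3 fell in DT mice. These are 25% and 20% of the list in control mice and 25% and 15% in DT mice, beside the 10.9% higher and 12.3% lower, and 10.8% and 13.5%, of all genes given above. In DT mice 9 rose and 2 fell without mice 13 and 20. Tpt1 (0.47 and 0.36), Naca (0.48 and 0.47) and Cct4 (0.70 and 0.54) rose in both, while Eif4b (-0.65 and -0.51), Eif4a2 (-0.47 and -0.55) and the elongation factor Eef1a1 (-0.44 and -0.33) fell in both. Of 8 tested snoRNA host genes with TOP starts, none was called in control mice and 2 rose in DT mice, Snhg1 (0.76 ± 0.20) and Snhg6 (0.65 ± 0.22), and 1 without mice 13 and 20. The 2 calls are 25% of that list, beside 10.8% of all genes.

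Among 25 genes of the mTOR and LARP1 pathway, 3 rose and 3 fell in control mice, and 2 rose and 3 fell in DT mice, shares near those of all genes (12% and 12%, beside 10.9% and 12.3%, and 8% and 12%, beside 10.8% and 13.5%). In DT mice 3 rose and 7 fell without mice 13 and 20. Sesn2, a leucine sensor that restrains mTOR complex 1, fell from 104.2 ± 15.9 to 39.8 ± 4.6 CPM in control mice (-1.39 ± 0.16) and from 96.0 ± 13.7 to 49.0 ± 12.9 CPM in DT mice (-0.97 ± 0.15). Rheb, the activator of that complex, rose in both (0.51 and 0.43). Of 12 tested factors known at these promoters, Max rose in both (0.48 ± 0.14 and 0.48 ± 0.12), Zbtb7a fell in control mice (-0.48 ± 0.12) and Gabpa in DT mice (-0.67 ± 0.12). These calls are 8.33% of the list in each direction in both comparisons, below the shares of all genes just given. Averaged over DT and control mice, 1 factor rose and 5 fell on refeeding, with a median of -0.415. That is 8.33% higher and 41.7% lower, beside 17.2% and 21.7% of all genes. Without mice 13 and 20, 1 factor rose and 2 fell in control mice, 2 rose and 3 fell in DT mice, and 2 rose and 7 fell on average. Between DT and control mice no gene of these 6 lists was called with all mice, and without mice 13 and 20 2 mTOR and LARP1 genes were called lower and 1 of the ribosomal proteins with other symbols higher in refed DT mice.

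Other signals moved with the members. The mean log2 CPM of 35 short, abundant nuclear genes of oxidative phosphorylation followed the members' mean over the 22 libraries with a Pearson r of 0.91 and a Spearman rho of 0.86, and with an r of 0.91 for deviations from the group means. The r was 0.86 without the 2 libraries farthest from the median of that list, and 0.87 without mice 13 and 20. Refeeding raised 12 of these 35 in control mice and lowered none (median 0.24), and raised 20 and lowered 1 in DT mice (median 0.32). The shares raised were 34.3% and 57.1%, beside 10.9% and 10.8% of all genes. Without mice 13 and 20, refeeding raised 17 of these genes in control mice, and raised 19 and lowered 1 in DT mice. Between DT and control refed mice their median was 0.05, with none called, beside the members' 0.21, and -0.01 beside 0.15 without mice 13 and 20. The genes outside the list of members most like their mean, among 7927 compared, were Ndufb11 (r = 0.94), Atpif1 (0.93), Ndufb1 (0.92), Gstp1 (0.92) and Romo1 (0.92).

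Marker lists gave further values. All 14 acinar enzyme genes had log2 fold changes above 0 on refeeding, with medians of 1.00 in control and 1.29 in DT mice and none called. None was at 0. Their summed level ranged from 141 to 14710 CPM fasted and 1466 to 23920 refed in control mice, and from 121 to 21520 fasted and 83.4 to 40770 refed in DT mice. Mitochondrially encoded genes were higher in DT than in control refed mice for 10 of 10 tested (median 0.58, none called), but without mice 13 and 20 for 0 of 10 (median -0.16, none called). Of 12 dissociation and stress genes, 3 fell on refeeding in control mice, and 2 fell and 1 rose in DT mice. In control mice that is 25% lower, beside 12.3% of all genes. In DT mice it is 16.7% lower and 8.33% higher, beside 13.5% and 10.8% of all genes. The part of these signals in the members' changes was not tested.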

How the data were processed

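The authors deposited raw counts per gene. STAR 2.7.2b, HTSeq 0.9.1, DESeq2 1.28.1 and the build GRCm38.p6 are named in the submitters' processing notes. The handling of multi-mapping reads and strand is not given in the sources used here. Per the labels' protocols, RNA was amplified with the SMARTer Ultra Low kit and sequenced single-end. From the counts, edgeR 4.0.16 (R 4.3.3) fitted all 22 libraries with TMM scaling, filterByExpr, 1 coefficient per group and the robust quasi-likelihood test. P-values were Benjamini-Hochberg adjusted over 14064 genes, with a threshold of 0.05. CPM use TMM library sizes, and log2 CPM a prior count of 2. DESeq2 1.42.0 and limma voom 3.58.1 were alternatives. Depth per library was 16584117 to 24988880 counts. Scripts were tested on simulated data.

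The members, the other lists and 3 named genes (Rps19, Rps24 and Rpl27a) were chosen with earlier results of these data known. Values in full are given for members called in a comparison (over 10 in a direction, the 5 with the largest change, with those that hold in every fit), otherwise the 3 with the smallest p; the 3 highest and lowest per kilobase; the 5 least like the others; the stalk genes, Rps6, Rpl5 and Rpl11; and members under the count minimum. Some genes that this rule or the counts include are not reported here by name.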

Additional observations from a re-analysis of the deposited data

Results flagged for a closer look

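The summary measures and 24 members were examined in each of the 4 groups, 112 group tests, for a highest or lowest library set apart from the rest by a gap that is large relative to the group's range. Chance flags about 1 in 20 groups, and 14 were set apart. Refed DT mouse 13 accounted for 10 of them. It was high for the share of counts without insulin (1.17%, next 0.983%), Rpl13 (163.2 CPM, next 135), Rpl38 (105.2, next 56.7), Rplp2 (58.2, next 35.4), Rps29 (290.8, next 106.9), Rplp1 (119.7, next 79.2) and Rpl11 (57.5, next 48.0). It was low for Rps6 (68.5 CPM, next 81.8), Rpl5 (17.1, next 26.4) and Rps3 (77.4, next 120.8). These CPM depend on scaling: mouse 13 had a TMM factor of 0.567, beside 0.920 to 1.10 in the other libraries. Before scaling, its counts of Rpl13 (1786) and Rpl11 (629) were the lowest of the 22 libraries.

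Fasted control mouse 1 was high for Rpl3 (130.3 CPM, next 113) and Rps27 (123.5, next 99.8). Fasted DT mouse 10 was low for Rpl3 (102.2, next 126), and fasted DT mouse 7 was low for Rpl13a (1.73, next 2.66).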

How the results depend on the processing

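On refeeding in control mice, 13 members were called, and 4 with upper quartile scaling, 7 without the filter on low counts, 20 without mice 13 and 20 (chosen after seeing the data) and 5 to 20 when 1 library was left out. In DT mice, 34 were called, and 18 with upper quartile scaling, 16 when only the groups compared were fitted and 17 to 43 when 1 library was left out. The shares of all genes called under these other settings are not given here, so these counts do not set the members against other genes. DESeq2 called 1 member between DT and control refed mice and 2 on average over feeding states, where edgeR called none. The cause was not tested. The median share of counts of 0.442% was 0.864% without Ins1 and Ins2 in the total. The medians over the members kept their direction under every scaling, filter and tool run and without mice 13 and 20. With 1 library left out, the fasted DT median ranged from -0.01 to 0.07, the refed DT median from 0.14 to 0.25, the refeeding median from 0.11 to 0.22 in control and from 0.28 to 0.38 in DT mice. Calls held without mice 13 and 20 for 13 of 13 members in control mice and 31 of 34 in DT mice. No paired analysis was possible because each mouse number occurs in 1 group only. Depth limits Rps10, Rpl13a and Rpl24 most.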
